A study of Mus musculus with 63 samples.

Results

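The genes described here encode the proteins of the mitochondrial ribosome. They are the 76 rows of the deposited count table, of 23429 rows in all, whose symbol starts with Mrpl or Mrps followed by a digit. The symbols divide into 47 Mrpl and 29 Mrps names. By the systematic ribosomal protein nomenclature, 49 of the genes encode large-subunit proteins and 26 encode small-subunit proteins, since Mrps18a and Mrps30 belong to the large subunit in spite of their names. The remaining gene, Mrps36, encodes an adaptor of the 2-oxoglutarate dehydrogenase complex and no ribosomal protein, and it is kept because its symbol meets the rule. All 76 genes had reads in every library and all 76 passed the filter on low counts in every comparison.

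The mitochondrial ribosome translates the small set of mRNAs that mitochondrial DNA encodes, all for subunits of the respiratory chain and ATP synthase. Its RNA is made inside the organelle, whereas every protein of it is encoded in the nucleus, translated in the cytosol and imported. Many members descend from bacterial ribosomal proteins and others were added in the mitochondrial lineage. In the heart, which has a high mitochondrial content, inherited variants of several human members (MRPL3, MRPL44 and MRPS22 among them) are known to cause cardiomyopathy.

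RNA sequencing of polyadenylated RNA measured gene expression in 63 libraries of mouse hearts on the FVB/N background, at postnatal day 1 (P1), P21 and 5 weeks. Mfn2AA hearts overexpressed human mitofusin 2, an outer mitochondrial membrane protein that fuses mitochondria, with the substitutions T111A and S442A. Mfn2wt hearts overexpressed human mitofusin 2 without them, tet-off hearts are given by the labels as the control, and nontransgenic hearts are labelled as without a transgene. The numbers of Mfn2AA, Mfn2wt, tet-off and nontransgenic libraries were 3, 4, 5 and 6 at P1, 6, 6, 5 and 6 at P21, and 4, 4, 3 and 4 at 5 weeks. Libraries of each age were prepared as a batch of their own, and 3 nontransgenic hearts of P21 and 4 of 5 weeks were prepared in the P1 batch, all but 1 of them from RNA that also gave a library in the batch of its own age. The labels give whole heart at P1 and left ventricle at the later ages, while the extraction protocol names the ventricular apex for all samples. The promoter that drives the transgenes, the number of founder lines and the sex of the animals are not given in the sources used here.

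Libraries held 4557894 to 24339146 counted reads, of which 13846 to 110267 fell on the 76 genes. The deposited FPKM of the human transgene was 1878 to 2438 in Mfn2AA hearts and 264 to 494 in Mfn2wt hearts at P1, 1834 to 8051 in Mfn2AA hearts and 1405 to 1796 in Mfn2wt hearts at P21, and 336 to 851 in Mfn2AA hearts and 1232 to 1745 in Mfn2wt hearts at 5 weeks. It was 7.39 to 155, 6.36 to 362 and 3.96 to 190 in tet-off hearts of P1, P21 and 5 weeks, and 1.79 to 177 over all nontransgenic libraries. The tet-off value of 362, from 1 library, lies inside the ranges of Mfn2wt hearts at P1 and of Mfn2AA hearts at 5 weeks, and the nontransgenic value of 177 came from 1 library of 5 weeks in the P1 batch. The median was higher in Mfn2AA hearts at P1 and P21 and in Mfn2wt hearts at 5 weeks. All 8 cardiomyocyte markers examined (such as Myh6, Tnnt2 and Ryr2) had reads in every group. Atrial markers (10 genes, among them Sln, Myl7 and Nppa) were detected in every group, with a summed level from 144 to 14923 CPM over the own-batch and P1-batch libraries.

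The 76 genes lay on 17 autosomes and none on the X chromosome in the deposited mm10 annotation. Their annotated exons covered 407 to 6712 bases, with a median of 1053. A total of 26 members (34.2%) started within 1000 bases of a gene transcribed away from them on the other strand, against 9.15% of 23279 genes checked. Mrpl46 and Mrps11 formed such a pair with each other on chromosome 7, with 42 bases between their starts. Exons of 9 members overlapped those of another gene, most of all Mrps25, of whose exonic bases 58.3% also lay in exons of Nr2c2 on the opposite strand. Mrpl41 shared 41.4% with Wdr85 and Mrpl24 shared 37.4% with Rrnad1, both on the opposite strand, and Mrps6 shared 18.6% with Slc5a3 on the same strand. The libraries carry no strand information, so reads of stretches shared with the opposite strand cannot be assigned to either gene. Strand would not separate reads of the stretch that Mrps6 shares with Slc5a3. The values of these members are uncertain to that extent.

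Promoter sequences of 67 members were available from RefSeq (GRCm38.p6, the same assembly as mm10), each from 250 bases before the annotated start to 50 after it. A set of 6 motifs were searched on both strands, without regard to overlap between them. The letters CCGGAAG, the core bound by ETS factors such as GABP, were in 34.3% of members' promoters and in 9.12% of 27025 promoters. The motif of NRF1, GCGC and TGCGC separated by any 1 base, was in 17.9% against 4.78%, and that of YY1, AAGATGGC, in 17.9% against 2.88%. For the letters TATAAA the shares were 5.97% and 14.2%, for CCAAT 40.3% and 37.9%, and for CACGTG 7.46% and 7.24%. At least 1 of the ETS, NRF1 and YY1 motifs was found in 40 of the 67 members' promoters. A match is a description of these letters and not of a bound site. The 100 bases before the start are printed for 6 members that recur below, 5′ to 3′ on the gene's strand, with matches in capitals. Mrpl42 and Mrps18a also had a YY1 match after the start, outside the printed bases. Mrpl12 (chr11:120484537-120484636, + strand) and Mrpl44 (chr1:79775918-79776017, + strand) held an NRF1 match, Mrpl3 (chr9:105053168-105053267, + strand), Mrps22 (chr9:98601680-98601779, − strand) and Mrps18a (chr17:46110904-46111003, + strand) an ETS match, and Mrpl42 (chr10:95501950-95502049, − strand) neither in this window.
Mrpl12: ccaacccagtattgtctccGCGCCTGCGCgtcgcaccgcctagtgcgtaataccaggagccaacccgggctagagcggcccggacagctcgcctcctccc
Mrpl44: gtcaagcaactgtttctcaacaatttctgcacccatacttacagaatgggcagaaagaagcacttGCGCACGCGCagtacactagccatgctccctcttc
Mrpl3: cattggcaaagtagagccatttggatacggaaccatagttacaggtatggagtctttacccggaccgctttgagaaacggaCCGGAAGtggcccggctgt
Mrps22: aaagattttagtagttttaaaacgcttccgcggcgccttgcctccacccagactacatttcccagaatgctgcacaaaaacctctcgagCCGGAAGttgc
Mrps18a: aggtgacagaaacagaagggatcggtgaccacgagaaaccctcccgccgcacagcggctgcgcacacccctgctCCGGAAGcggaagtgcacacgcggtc
Mrpl42: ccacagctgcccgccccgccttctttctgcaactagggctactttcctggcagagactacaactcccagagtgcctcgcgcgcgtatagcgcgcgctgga

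Levels between members were compared on the deposited FPKM scale, which divides by transcript length. Over the 23 nontransgenic libraries the mean FPKM of a member ran from 5.05 to 408, a span of 80.8-fold, with a median of 46.9 over all members. The highest levels were those of Mrps21 (a small-subunit protein, 408), Mrpl42 (a large-subunit protein specific to mitochondria, 402), Mrpl12 (the stalk protein that recruits translation factors, 275), Mrpl33 (228) and Mrpl30 (223). The lowest were those of Mrpl17 (5.05), Mrpl1 (5.07), Mrpl19 (5.17), Mrpl35 (8.78) and Mrps25 (11.02). Median levels of large-subunit members (46.4) and small-subunit members (44.5) lay close together, so the span was within each subunit and not between them.

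The first comparison was that of ages in nontransgenic hearts, all from the P1 batch, and used read counts scaled to library size with TMM factors (CPM). From P1 to P21 most members that changed rose. Between P21 and P1, 40 of 76 members were higher at P21 (edgeR quasi-likelihood test with Benjamini-Hochberg adjustment over all genes, adjusted p under 0.05), against 29.0% of all 13534 genes tested. Only 5 members were lower at P21, against 28.5% of all genes. The median log2 fold change was 0.30 over the members and -0.02 over all genes. The summed level of the 76 genes was 4281 ± 285 CPM at P21 and 3434 ± 385 CPM at P1 (SD, n = 3 and 6), with 1 P1 library inside the range of the P21 libraries.

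Mrps25, a small-subunit protein specific to mitochondria whose exons largely overlap those of Nr2c2, had the largest rise. Its level was 33.3, 26.5, 29.3, 26.6, 39.8 and 30.6 CPM in the 6 P1 libraries, 71.3, 64.4 and 73.3 CPM at P21, and 69.4, 59.4, 73.5 and 65.9 CPM at 5 weeks. All later libraries lay above all P1 libraries, and the change from P1 to P21 was 1.15 ± 0.11 (log2, standard error, adjusted p = 6.75e-08). Mrpl42 had 277, 208 and 250 CPM at P21, against 162, 102, 112, 122, 148 and 143 CPM at P1, again without overlap (log2 0.88 ± 0.13, adjusted p = 1.41e-05). Mrpl1, which forms the flexible stalk beside the exit site for tRNA, rose by 0.86 ± 0.21, Mrps6 of the small-subunit platform by 0.75 ± 0.14 and Mrps14 of the small-subunit head by 0.73 ± 0.14 on the log2 scale. The cardiomyopathy genes Mrpl44 (0.54 ± 0.10) and Mrpl3 (0.52 ± 0.10) also rose, as did Mrps36 (0.69 ± 0.15). Mrpl45, which docks the ribosome at the inner membrane, rose by 0.31 ± 0.09.

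The 5 members that fell were Mrps5, Mrpl52, Mrpl54, Mrps2 and Mrps27. Mrps5, a small-subunit protein at the entry of the mRNA channel, had 46.2, 50.8 and 49.6 CPM at P21, against 64.2, 73.2, 75.5, 60.7, 75.7 and 74.0 CPM at P1, so the ages did not overlap (log2 -0.55 ± 0.09, adjusted p = 4.11e-05). Mrpl52 (-0.54 ± 0.15) and Mrpl54 (-0.46 ± 0.13), both large-subunit proteins specific to mitochondria, also had P21 libraries all below the P1 libraries. Mrps2 (-0.31 ± 0.11) and Mrps27 (-0.23 ± 0.09), a pentatricopeptide repeat protein, overlapped between ages. In 9 fits with 1 library left out, Mrps5 and Mrpl54 were called in all 9, Mrpl52 in 8, Mrps2 in 7 and Mrps27 in 4. Mrpl45, among the rises named above, was called in 8. The number of members called ran from 35 to 53 over these fits. Mrps22 (-0.12 ± 0.13), Mrpl12 (-0.01 ± 0.14), Mrps18b (0.21 ± 0.12) and Mrps18c (0.08 ± 0.20) did not pass the test.

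Between 5 weeks and P21 fewer members passed, 7 higher (background 11.6% of genes) and 5 lower (background 10.8%) at 5 weeks, shares of the members that lie near those of all genes. The median was -0.11 over members and -0.03 over all genes. Mrpl38 rose by 0.48 ± 0.09 (log2), with 69.3, 71.3, 74.8 and 69.2 CPM at 5 weeks, against 48.0, 52.2 and 53.2 CPM at P21. Mrpl44 rose again, by 0.41 ± 0.11, and its P1, P21 and 5-week levels of 28.3 ± 3.1, 41.6 ± 1.3 and 55.1 ± 5.8 CPM (SD, n = 6, 3 and 4) each lay apart from the next. Mrps5 and Mrps2, which had fallen by P21, were higher at 5 weeks than at P21 by 0.35 ± 0.10 and 0.38 ± 0.12 (adjusted p = 0.0148 and 0.0279), with Mrps5 at 68.3, 64.7, 60.4 and 55.2 CPM at 5 weeks, all above P21. Mrps7 (0.35 ± 0.09) rose as well and was called in all 7 fits with 1 library left out. Mrps18b passed with all libraries (0.39 ± 0.13, adjusted p = 0.0389) and in none of those 7 fits (adjusted p from 0.0504 to 0.141). The falls were those of Mrpl27 near the peptidyl transferase centre (-0.64 ± 0.13), Mrps10 (-0.53 ± 0.12), Mrps28 (-0.51 ± 0.14), Mrps22 (-0.43 ± 0.15) and Mrpl48 (-0.38 ± 0.09). Of the 7 fits, Mrps28 was called in 5, Mrps2 in 3 and Mrps22 in 2. Leaving out the P21 library with the highest summed level (4499 CPM) reduced the 12 calls to 5.

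Across the whole span, 33 members were higher and 9 lower at 5 weeks than at P1, against 32.8% and 34.9% of genes. The largest rises were those of Mrps25 (1.10 ± 0.10), Mrpl44 (0.95 ± 0.09), Mrpl3 (0.79 ± 0.09), Mrpl37 (0.71 ± 0.08) and Mrpl14 (0.70 ± 0.10). The largest falls were those of Mrpl52 (-0.99 ± 0.15), Mrpl54 (-0.68 ± 0.12), Mrps10 (-0.55 ± 0.11), Mrps22 (-0.55 ± 0.13) and Mrpl27 (-0.53 ± 0.11). All age comparisons share libraries with each other.

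Other genes of the same pathway and markers of cell types were counted beside the members. Of all genes tested 29.0% were higher and 28.5% lower at P21 than at P1, and 10.8% were lower at 5 weeks than at P21. From P1 to P21, 10 of 29 assembly factors of the mitochondrial ribosome rose, a share near that of all genes, and 1 fell (median 0.21). Of 18 translation factors 10 rose and 1 fell (median 0.29), and 6 of 13 mitochondrially encoded mRNAs rose (median 0.71), with mt-Co1 at 1.27 ± 0.21. For 20 genes of mitochondrial tRNA charging the counts were 6 up and 3 down (median 0.17). For 15 genes of mitochondrial DNA transcription and maintenance they were 7 up and none down. Regulators of mitochondrial biogenesis, 11 genes, had 1 rise and 4 falls (median -0.08). The proteins of the cytosolic ribosome went the other way, with 42 of 79 lower and 1 higher at P21 (median -0.45) and again 29 of 79 lower at 5 weeks than at P21 (median -0.54). The 1 riser was Rpl3l, a muscle form of Rpl3, at 4.36 ± 0.31, while Rpl3 fell by 1.21 ± 0.14. Among cell type markers, 5 of 8 cardiomyocyte, 5 of 8 endothelial and 10 of 10 macrophage markers were higher at P21, and 16 of 16 cell cycle genes were lower. Fibroblast markers went both ways, with 4 of 8 higher and 3 lower, and of 6 adipocyte markers tested 2 were higher and 1 lower. The summed cardiomyocyte markers were 74869 to 94916 CPM at P21 and 49969 to 66842 CPM at P1. The labelled tissue also differs between the ages, and the summed atrial markers were 1047 to 8226 CPM at P21 and 587 to 2780 CPM at P1. The part of these markers in the changes of the members was not tested, and in whole tissue a change in the number of cells of a type and a change of RNA per cell cannot be told apart.

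**Figure D1:**
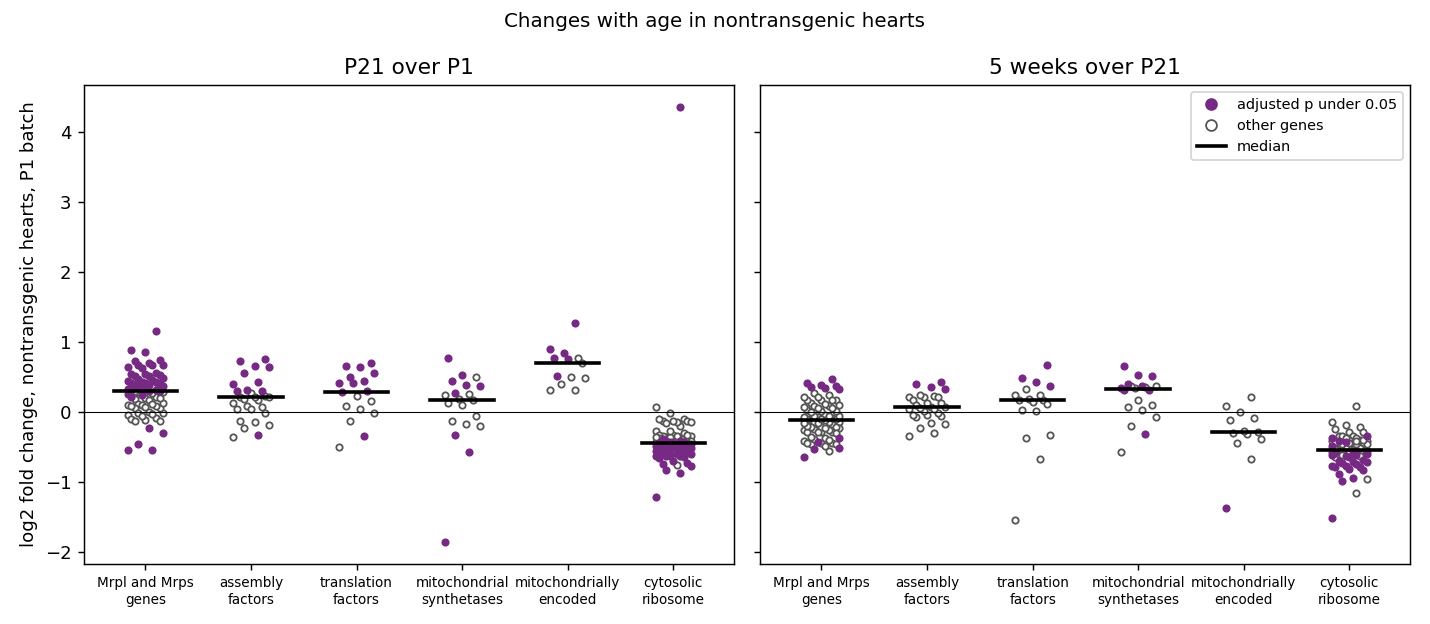
Points are genes, grouped by list along the horizontal axis, and the vertical axis is the log2 fold change between ages in nontransgenic hearts of the P1 batch (filled, adjusted p under 0.05, bar, median). The medians of the 76 Mrpl and Mrps genes were 0.30 for P21 over P1 and -0.11 for 5 weeks over P21, whereas those of the cytosolic ribosomal proteins were -0.45 and -0.54.

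At 5 weeks the members were lower in Mfn2AA hearts than in either control. Between Mfn2AA and Mfn2wt hearts 51 of 76 members were lower and none higher (edgeR, adjusted p under 0.05), against 18.2% of 13661 genes lower. The median log2 fold change was -0.64 over members and 0.03 over all genes, and 74 of the 76 values were negative. Between Mfn2AA and tet-off hearts 53 members were lower and none higher, against 16.1% of genes lower, with a median of -0.67 over members and 0.01 over all genes. The 2 comparisons share the Mfn2AA libraries. In Mfn2AA hearts the summed level was 2233, 2466, 2780 and 2225 CPM, against 3849, 3813, 3922 and 4055 CPM in Mfn2wt hearts, 3875, 3986 and 3824 CPM in tet-off hearts and 3969, 4357, 4208 and 4038 CPM in nontransgenic hearts. All Mfn2AA libraries lay below all others, and their mean was 62.0% of the Mfn2wt mean and 62.3% of the tet-off mean.

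**Figure D2:**
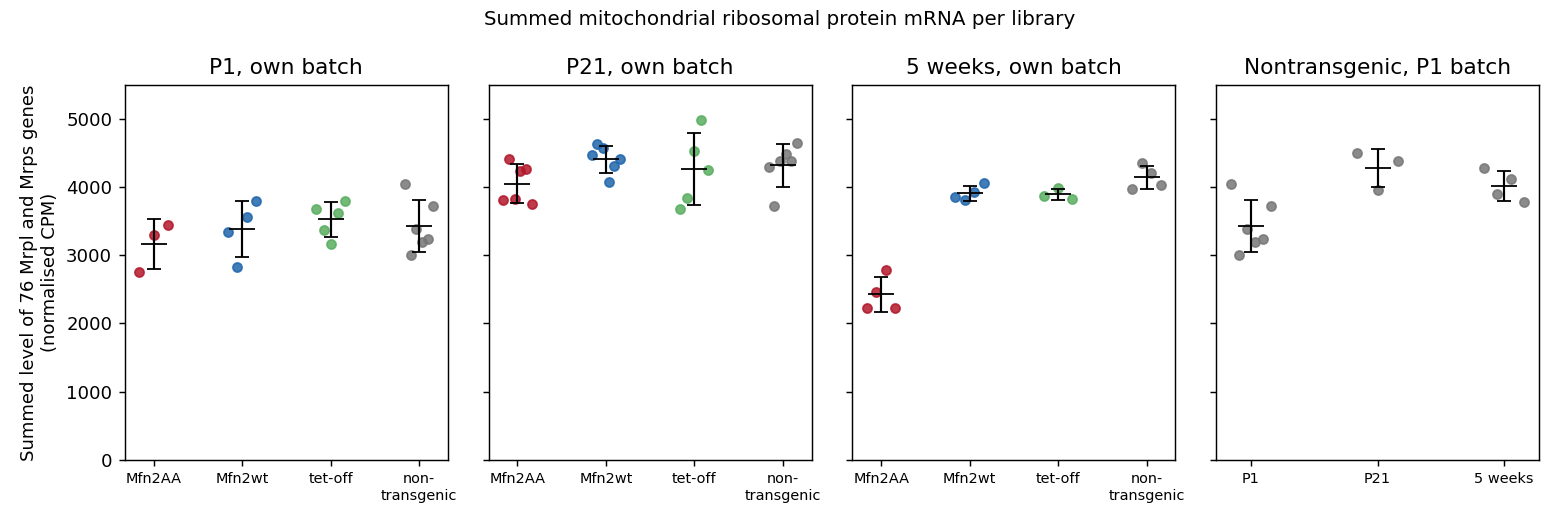
Each point is a library, the vertical axis is the summed level of the 76 genes in normalised CPM, and bars show mean and SD. The 4 Mfn2AA libraries at 5 weeks sit between 2225 and 2780 CPM, below every other library of that age, while groups overlap at P1 and P21.

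Mrpl42 had the largest fall in both comparisons. It had 56.7, 65.8, 96.6 and 66.7 CPM in Mfn2AA hearts, against 167, 165, 164 and 143 CPM in Mfn2wt hearts, 171, 181 and 155 CPM in tet-off hearts and 195, 211, 178 and 144 CPM in nontransgenic hearts. The Mfn2AA values did not overlap any control, and the difference was -1.17 ± 0.15 from Mfn2wt (adjusted p = 3.52e-05) and -1.24 ± 0.16 from tet-off (adjusted p = 4.78e-05). Mrpl55, a homologue of a bacterial large-subunit protein, fell by 1.11 ± 0.17 against Mfn2wt and by 0.86 ± 0.18 against tet-off, Mrpl34 by 1.02 ± 0.15 and 0.83 ± 0.16, and Mrpl4, which lines the exit tunnel, by 0.99 ± 0.21 and 0.90 ± 0.22. Against tet-off the next largest falls were those of the large-subunit protein Mrps30 (-1.06 ± 0.15), the small-subunit protein Mrps35 (-1.01 ± 0.20), the large-subunit protein Mrpl14 (-0.99 ± 0.15) and the small-subunit protein Mrps24 (-0.96 ± 0.15). Mrps30 had 8.13, 8.02, 11.3 and 8.60 CPM in Mfn2AA hearts, against 15.0, 18.8, 14.9 and 15.2 CPM in Mfn2wt hearts and 18.9, 18.9 and 19.1 CPM in tet-off hearts.

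Mrpl12, among the 3 most abundant members, had 129, 138, 127 and 104 CPM in Mfn2AA hearts, against 249.3, 198, 246 and 234 CPM in Mfn2wt hearts and 202, 196 and 239 CPM in tet-off hearts. It fell by 0.90 ± 0.12 (log2) against Mfn2wt and 0.76 ± 0.13 against tet-off. Of the members tied to human cardiomyopathy, Mrpl44 had 35.4, 37.4, 31.6 and 29.2 CPM in Mfn2AA hearts, against 56.4, 51.9, 54.1 and 64.5 CPM in Mfn2wt hearts (-0.77 ± 0.11). Its difference from tet-off was -0.80 ± 0.12. Mrpl3 fell against Mfn2wt (-0.88 ± 0.20) and tet-off (-0.75 ± 0.21, adjusted p = 0.0113), with 1 tet-off library (22.4 CPM) inside the Mfn2AA range of 14.6 to 22.6 CPM. Mrps22 was called against tet-off at the edge of the threshold (-0.58 ± 0.22, adjusted p = 0.0499) and not against Mfn2wt (-0.46 ± 0.21, adjusted p = 0.0961). In 7 fits with 1 library left out, the call against tet-off held in 7 for Mrpl44, 5 for Mrpl3 and 1 for Mrps22. The calls of Mrpl44 and Mrpl3 against Mfn2wt held in all 8 such fits.

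Mrps36, the dehydrogenase adaptor, had 56.3, 44.2, 64.6 and 51.6 CPM in Mfn2AA hearts, against 106, 89.4, 118 and 158 CPM in Mfn2wt hearts and 96.9, 101 and 115 CPM in tet-off hearts. Its falls of 1.13 ± 0.17 and 0.94 ± 0.18 stand beside the -1.17 and -1.24 of Mrpl42. Mrpl45 fell by 0.79 ± 0.18 and 0.80 ± 0.19, and Mrps5 by 0.71 ± 0.12 and 0.53 ± 0.13. The 3 homologues of bacterial S18 differed in what passed. The class counts given below place only Mrps18c among members with bacterial homologues, and Mrps18a and Mrps18b among those specific to mitochondria. Mrps18a, which sits in the large subunit, fell in both comparisons (-0.56 ± 0.12 and -0.53 ± 0.12), Mrps18b passed against Mfn2wt (-0.66 ± 0.19, and -0.49 ± 0.21 against tet-off) and Mrps18c passed in neither (-0.60 ± 0.30 and -0.61 ± 0.32). Whether these 3 differ from each other was not tested.

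**Figure D3:**
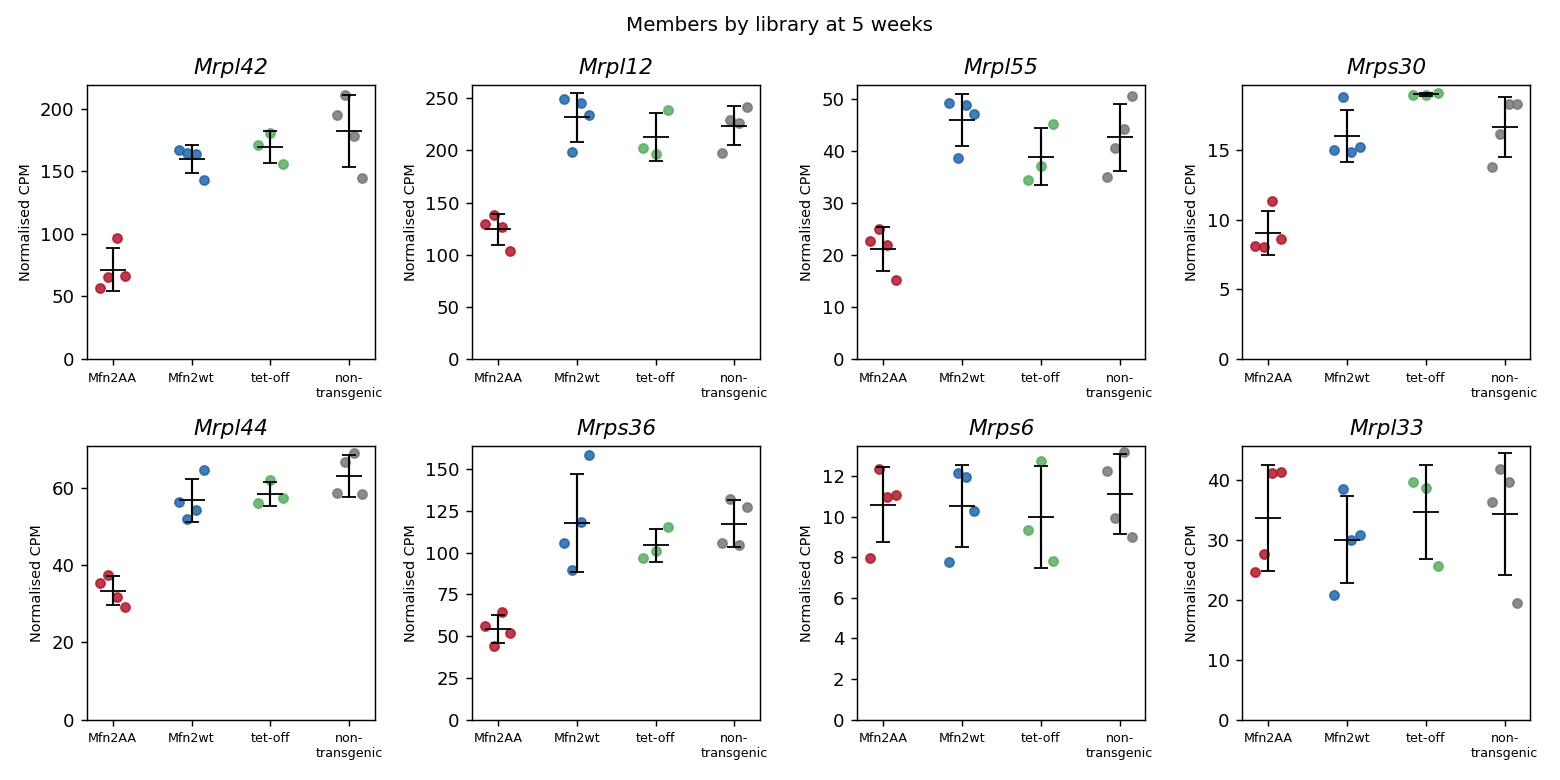
Panels are members, points are libraries at 5 weeks, the vertical axes are normalised CPM from 0, and bars show mean and SD. Mrpl42, Mrpl12, Mrpl55, Mrps30, Mrpl44 and Mrps36 in Mfn2AA hearts lie below all other libraries, while Mrps6 and Mrpl33 overlap between all groups.

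The fall was seen across both subunits and both evolutionary classes. Of the 49 large-subunit members 33 were lower than in Mfn2wt hearts (median -0.61), and 33 were lower than in tet-off hearts (median -0.71). Of the 26 small-subunit members the counts were 17 (median -0.66) and 19 (median -0.59). Of the 46 members with bacterial homologues 32 and 36 were lower (medians -0.59 and -0.67), and of the 29 specific to mitochondria 18 and 16 (medians -0.66 and -0.65). Some members had values near 0 in at least 1 of the comparisons. Mrps6 had 7.97, 12.3, 10.96 and 11.1 CPM in Mfn2AA hearts, against 7.78, 12.1, 11.9 and 10.3 CPM in Mfn2wt hearts (-0.02 ± 0.19, and 0.09 ± 0.21 against tet-off). Mrpl33 differed by 0.14 ± 0.24 from Mfn2wt and -0.04 ± 0.26 from tet-off, and Mrpl52 by 0.12 ± 0.21 and -0.22 ± 0.22. Mrpl41, whose exons partly overlap those of Wdr85, differed by -0.03 ± 0.16 from Mfn2wt while it was lower than in tet-off hearts by 0.79 ± 0.17. Its level was 18.9 to 30.5 CPM in Mfn2AA hearts, 20.9 to 25.7 CPM in Mfn2wt hearts and 24.6 to 34.3 CPM in nontransgenic hearts. The tet-off libraries, at 34.4 to 47.0 CPM, lay above all of these. These 4 members were picked after their values were seen.

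**Figure D4:**
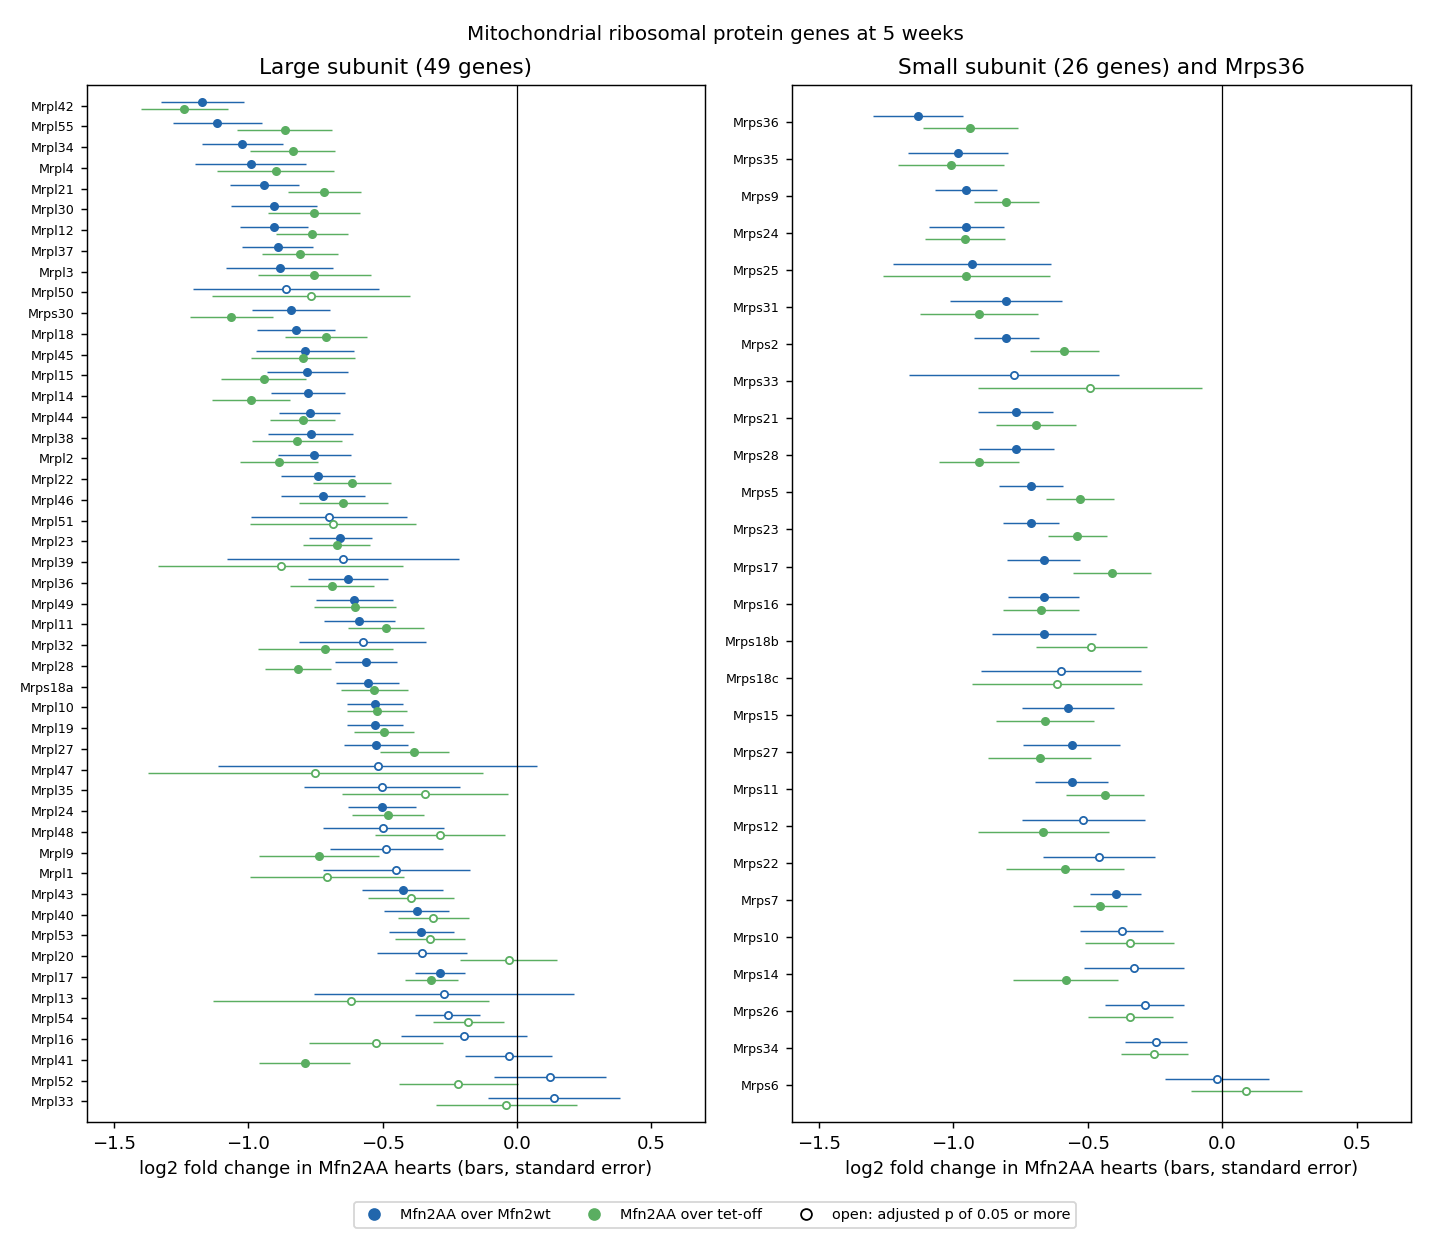
Rows are the 76 genes in 2 panels by subunit, ordered by their change from Mfn2wt, and the horizontal axis is the log2 fold change of Mfn2AA over each control with its standard error (filled, adjusted p under 0.05). Values run from -1.17 to 0.14 against Mfn2wt and from -1.24 to 0.09 against tet-off.

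Median changes of members with and without each promoter motif were set side by side. Between Mfn2AA and Mfn2wt hearts they were -0.60 for the 23 promoters with an ETS match and -0.64 for the 44 without, -0.77 for the 12 with an NRF1 match and -0.60 for the 55 without, and -0.57 for the 12 with a YY1 match and -0.66 for the 55 without. Between Mfn2AA and tet-off hearts the medians with and without a match were -0.58 and -0.71 for ETS, -0.76 and -0.61 for NRF1, and -0.67 and -0.66 for YY1. Between P21 and P1 in nontransgenic hearts they were 0.21 and 0.31 for ETS, 0.31 and 0.29 for NRF1, and 0.24 and 0.31 for YY1. These medians are a description, with no test.

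Other genes of mitochondrial gene expression were counted beside the members at 5 weeks, where 18.2% and 16.1% of all genes were lower against Mfn2wt and tet-off. Against Mfn2wt and tet-off, 21 and 16 of 29 assembly factors fell and 1 and 0 rose (medians -0.57 and -0.54), among them Fastkd2 (-1.19 ± 0.31) and Mtg1 (-1.07 ± 0.16 against tet-off). Of 18 translation factors 13 and 12 fell, with the elongation factor Tufm at -1.15 ± 0.13 against tet-off. Of 20 genes of mitochondrial tRNA charging 12 and 11 fell, and of 15 tested genes of mitochondrial DNA transcription and maintenance 10 and 9, with the helicase Peo1 (-1.43 ± 0.13 and -1.18 ± 0.14). All 13 mitochondrially encoded mRNAs were lower, with medians of -1.77 and -1.83, further from 0 than the median of the members. The 7 mitochondrial ribosomal proteins with other symbols had 6 falls in each comparison, including Dap3 (-0.70 ± 0.11 and -0.65 ± 0.12). Of 11 regulators of mitochondrial biogenesis 5 fell in each and 1 and 2 rose, with Ppara among the falls (-1.24 ± 0.14 and -1.12 ± 0.15) and Myc among the rises against tet-off (1.76 ± 0.35). The RNAs that build the mitochondrial ribosome with these proteins (mt-Rnr1 and mt-Rnr2) are poorly sampled after selection of polyadenylated RNA, and their summed level ran from 3601 to 15168 CPM in Mfn2AA hearts and from 9180 to 157183 CPM in Mfn2wt hearts.

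Of 79 cytosolic ribosomal proteins tested, 2 were higher and 2 lower than in Mfn2wt hearts (median 0.01), and 6 were higher and 2 lower than in tet-off hearts (median 0.16). Among these calls were Rpl3l, which fell by 1.88 ± 0.22 and 2.14 ± 0.23, and Rpl3, which rose by 0.86 ± 0.14 and 1.196 ± 0.16. Their summed level was 18367 to 24203 CPM in Mfn2AA hearts, 19765 to 22950 CPM in Mfn2wt hearts and 18698 to 19836 CPM in tet-off hearts.

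Markers of several cell types differed as well at 5 weeks. Of all 13661 genes tested, 2774 were higher and 2483 lower than in Mfn2wt hearts, and 2584 were higher and 2197 lower than in tet-off hearts. Of 8 cardiomyocyte markers 6 were lower in Mfn2AA hearts in each comparison (medians -1.09 and -0.998), with a summed level of 51427 to 64224 CPM in Mfn2AA hearts, against 102328 to 119438 CPM in Mfn2wt hearts and 98392 to 105655 CPM in tet-off hearts. Of 8 fibroblast markers 7 were higher in each (medians 2.05 and 2.09), with 12279 to 18375 CPM in Mfn2AA hearts, against 1931 to 2958 CPM in Mfn2wt hearts and 1668 to 2471 CPM in tet-off hearts. Macrophage markers were higher in 9 and 10 of 10 cases, with 845 to 2496 CPM in Mfn2AA hearts, against 492 to 648 CPM in Mfn2wt hearts and 403 to 507 CPM in tet-off hearts, and 14 of 15 cell cycle genes were higher in each. Of 8 endothelial markers 1 was higher in each (medians 0.18 and 0.17). Of 7 adipocyte markers tested 2 were higher and 1 lower than in Mfn2wt hearts, and 2 were higher and none lower than in tet-off hearts. Of 7 erythroid markers 2 could be tested, with none and 1 higher, and the 4 globin genes were listed at 0 in every group of 5 weeks. The atrial list gave 7366 to 14923 CPM in Mfn2AA hearts, against 2005 to 3795 CPM in Mfn2wt hearts and 235 to 751 CPM in tet-off hearts. Of its 10 genes 1 was higher and 3 were lower than in Mfn2wt hearts, and 2 were higher and none lower than in tet-off hearts, with Nppa, also a marker of a stressed ventricle, at 4.61 ± 0.51 against tet-off. Of 18 genes of the integrated stress response 11 were lower and 1 higher than in Mfn2wt hearts, while 11 were higher and none lower than in tet-off hearts. Mfn2wt hearts themselves had 12 of these 18 genes higher and none lower than nontransgenic hearts (median 1.95), against 0.388% of all genes called in either direction. None of the 18 was called between tet-off and nontransgenic hearts. No marker of the lists other than the erythroid was at 0 in the Mfn2AA, Mfn2wt and tet-off groups. The part of any of these lists in the fall of the members was not tested.

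The 5-week counts differed between settings. As a share of all counted reads the members took 0.211% to 0.303% in Mfn2AA hearts and 0.187% to 0.348% in Mfn2wt hearts, ranges that overlap, and the ribosomal repeat Rn45s took 4.31% to 8.72% and 6.56% to 34.4% of reads. With Rn45s and the mitochondrial transcripts left out 51 members were called against Mfn2wt and 52 against tet-off, where 51 and 53 were called with them. With limma on log2(FPKM + 1), a scale on which the median of all genes was 0.33 above 0, the median of the members was -0.20 and 15 passed against Mfn2wt. The same fit gave 21 against tet-off, with medians of -0.37 over members and 0.20 over all genes. Relative to the median of all genes on this scale, the median of the members was -0.53 against Mfn2wt and -0.57 against tet-off. Leaving out the 5 libraries of lowest depth left 1 Mfn2wt library, and the median of the members against Mfn2wt was -0.65. Against tet-off 51 members were called in that setting. The share of all genes called is not given for these other settings. Their counts alone therefore do not tell a change in the members from a change over all genes.

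At P21 the difference between Mfn2AA and Mfn2wt hearts was smaller. Lower in Mfn2AA were 9 of 76 members and none higher, against 6.19% of 13585 genes lower and 1021 genes higher. The median was -0.12 over members and -0.01 over all genes. At an unadjusted p under 0.05 by the same edgeR test there were 23 members (30.3%, against 29.6% of all genes). The 9 called members were Mrpl1, Mrps33, Mrps18a, Mrps18b, Mrpl19, Mrps5, Mrpl45, Mrpl3 and Mrpl21. Mrps18a had 52.2 to 66.2 CPM (median 59.6) in the 6 Mfn2AA hearts, against 66.8 to 79.7 CPM (median 75.7) in the 6 Mfn2wt hearts. It was the 1 called member whose groups did not overlap (-0.35 ± 0.08, adjusted p = 0.00657). Mrps5 had 46.1 to 65.9 CPM in Mfn2AA hearts and 64.4 to 78.7 CPM in Mfn2wt hearts (-0.31 ± 0.08, adjusted p = 0.0103). Mrpl1 was lower than in Mfn2wt hearts by 0.58 ± 0.18, Mrps33 by 0.49 ± 0.14, Mrps18b by 0.33 ± 0.10, Mrpl45 by 0.30 ± 0.08 and Mrpl3 by 0.29 ± 0.09. In 12 fits with 1 library left out, Mrps18a, Mrps5 and Mrpl45 were called in all 12. Mrps18b was called in 9 of them, Mrps33 in 8, Mrpl1 in 7 and Mrpl3 in 4. Mrpl12 (-0.01 ± 0.10), Mrpl44 (-0.16 ± 0.10), Mrps22 (-0.20 ± 0.12), Mrps18c (-0.17 ± 0.16) and Mrps36 (-0.35 ± 0.14) did not pass. The count was 4 without the Mfn2AA library whose summed level was 3807 CPM and 15 without the Mfn2wt library at 4467 CPM. None of the 9 called members was called between Mfn2wt and nontransgenic hearts of P21. There Mfn2wt was higher by 0.29 for Mrps5, 0.26 for Mrpl19, 0.20 for Mrps18b and 0.19 for Mrps33 (log2). The values for Mrps18a, Mrpl3, Mrpl21, Mrpl1 and Mrpl45 were 0.09, 0.07, 0.05, 0.02 and 0.02. Mitochondrially encoded mRNAs were also lower in Mfn2AA than in Mfn2wt hearts, 10 of 13 (median -0.85). Their summed levels were 28463 to 36833 CPM in Mfn2AA hearts and 42674 to 63377 CPM in Mfn2wt hearts. In the same comparison 3 of 8 cardiomyocyte markers fell and 8 of 10 macrophage markers rose. Of 17 genes of the integrated stress response tested, 11 were lower and 1 higher. Mfn2wt hearts had 10 of these 17 higher and none lower than nontransgenic hearts, against 0.604% of all genes called in either direction. The part of these in the values of the members was not tested.

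Mfn2AA hearts did not differ from tet-off hearts in any member at P21 by the test, against 0.574% of genes called in either direction. At an unadjusted p under 0.05 there were 4 members (5.26%, against 12.2% of all genes), and DESeq2 called none. The median was -0.07, and -0.11 to -0.01 with single libraries left out. The 2 members with the lowest p were Mrpl16 (-0.30 ± 0.13, adjusted p = 0.313) and Mrpl24 (0.17 ± 0.07, adjusted p = 0.335).

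At P1 no member passed between Mfn2AA and Mfn2wt hearts (0.125% of genes called in either direction) or between Mfn2AA and tet-off hearts (0.00732%) with edgeR, nor with DESeq2. At an unadjusted p under 0.05 the counts were 7 and 8 (9.21% and 10.5% of members, against 10.5% and 8.35% of all genes). Lower values numbered 58 of 76 against Mfn2wt (median -0.12) and 73 of 76 against tet-off (median -0.16), where 50.3% and 51.6% of all genes were lower. Leaving out single libraries gave medians of -0.20 to -0.04 against Mfn2wt and -0.24 to -0.09 against tet-off, in both cases nearest 0 without the Mfn2AA library at 2759 CPM. Cytosolic ribosomal proteins were lower in 77 of 79 cases in both comparisons (medians -0.25 and -0.26), and none was called. Mitochondrially encoded mRNAs were higher in 10 of 13 cases against Mfn2wt (median 0.17) and lower in 13 of 13 against tet-off (median -0.55), none of them called. The part of these in the values of the members was not tested. The summed level was 2759, 3294 and 3449 CPM in Mfn2AA hearts, against 3342, 2835, 3563 and 3792 CPM in Mfn2wt hearts and 3169 to 3798 CPM in tet-off hearts, so the groups overlapped. The members with the lowest p were Mrps6 (-0.39 ± 0.14, adjusted p = 0.358) and Mrps36 (-0.46 ± 0.18, adjusted p = 0.391) against Mfn2wt, and Mrps27 (-0.24 ± 0.10, adjusted p = 0.522) and Mrps30 (-0.36 ± 0.14, adjusted p = 0.53) against tet-off.

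**Figure D5:**
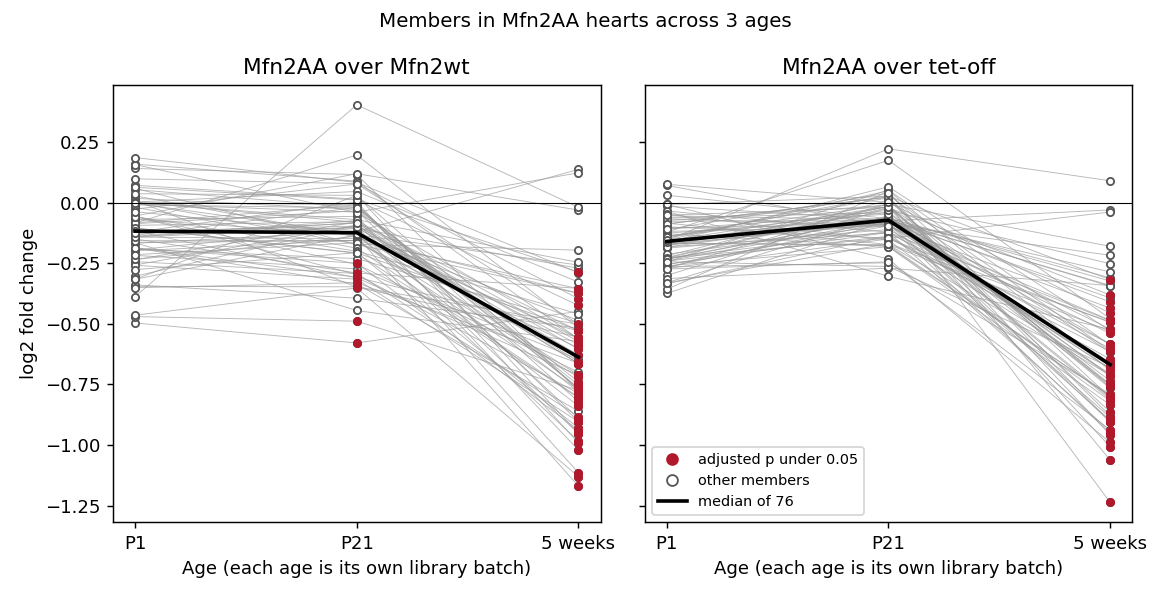
Lines are the 76 genes, the horizontal axis is age and the vertical axis is the log2 fold change of Mfn2AA hearts over each control (filled, adjusted p under 0.05, heavy line, median). The medians against Mfn2wt were -0.12, -0.12 and -0.64 at P1, P21 and 5 weeks, and those against tet-off were -0.16, -0.07 and -0.67.

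An interaction term, fitted over all own-batch libraries, asked whether the gap between Mfn2AA and Mfn2wt hearts changed between ages. From P21 to 5 weeks the difference moved down for 45 of 76 members and up for none, against 18.3% of 14610 genes moving down, with a median of -0.53 over members and 0.01 over all genes. The largest were those of Mrpl42 (-1.05 ± 0.22), Mrpl55 (-1.04 ± 0.18), Mrpl4 (-1.02 ± 0.19), Mrps24 (-1.01 ± 0.17) and Mrpl34 (-0.98 ± 0.19). From P1 to P21 no member passed with edgeR or DESeq2 (0.308% of genes called in either direction, 2 members, or 2.63%, at an unadjusted p under 0.05, against 8.20% of genes), and the lowest p belonged to Mrps6 (0.79 ± 0.26, adjusted p = 0.218) and Mrps18a (-0.36 ± 0.15, adjusted p = 0.447). Each age is a batch, so a batch effect that differs between the genotypes cannot be told apart from a change with age.

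The control lines were compared with nontransgenic hearts in the same way. No member passed between Mfn2wt and nontransgenic hearts with edgeR at P1, P21 or 5 weeks (0.146%, 0.604% and 0.388% of genes called in either direction), nor between tet-off and nontransgenic hearts (1.30%, 1.63% and 0.117%). At an unadjusted p under 0.05 there were 2, 5 and 4 members for Mfn2wt and 4, 6 and 3 for tet-off. These are 2.63%, 6.58% and 5.26% of members for Mfn2wt, against 12.9%, 7.69% and 5.25% of all genes, and 5.26%, 7.89% and 3.95% for tet-off, against 16.2%, 12.1% and 4.42% of all genes. DESeq2 called none for Mfn2wt and 1, 1 and 0 for tet-off. Medians lay between -0.10 and 0.04. At 5 weeks the medians were -0.06 for Mfn2wt and -0.10 for tet-off, small beside the -0.64 and -0.67 of Mfn2AA hearts. The lowest p at P21 belonged to Mrps5 for Mfn2wt (0.29 ± 0.08, adjusted p = 0.119), with 64.4 to 78.7 CPM in Mfn2wt hearts and 50.05 to 66.9 CPM in nontransgenic hearts, followed by Mrpl19 (0.26 ± 0.09). For tet-off at P21 it belonged to Mrpl41 (0.55 ± 0.16, adjusted p = 0.0805) and Mrpl14 (0.38 ± 0.12). At 5 weeks Mrpl41 again had the lowest p for tet-off (0.47 ± 0.17, adjusted p = 0.854), followed by Mrps34 (-0.28 ± 0.13), and for Mfn2wt they were Mrps15 (-0.43 ± 0.17) and Mrpl15 (-0.37 ± 0.15). At P1 they were Mrps18b (0.29 ± 0.13) and Mrps7 (0.18 ± 0.08) for Mfn2wt, and Mrps27 (0.30 ± 0.08, adjusted p = 0.0697) and Mrps7 (0.20 ± 0.08) for tet-off.

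Pairs of libraries made from the same RNA show how far the members differed between batches. With the heart as a replicate block, 9 members were higher and 14 lower in the P21 batch than in the P1 batch for 3 nontransgenic hearts of P21, against 6.73% and 7.39% of genes. For 3 hearts of 5 weeks 7 were higher and 3 lower in the 5-week batch, against 5.52% and 4.68%. Mrpl1 was lower in its own batch at both ages, at 9.86 ± 3.01 CPM against 18.5 ± 3.1 CPM in the P1 batch for P21 hearts (log2 -0.95 ± 0.14) and 5.68 ± 0.83 against 13.2 ± 2.2 CPM for 5-week hearts (-1.20 ± 0.19, SD, n = 3 each). Mrpl4 was higher in its own batch at both ages (0.29 ± 0.07 and 0.89 ± 0.18), as were Mrpl38 (0.36 ± 0.07 and 0.62 ± 0.15) and Mrps26 (0.34 ± 0.08 and 0.76 ± 0.15). Also past the test at P21 were Mrps24 (0.32 ± 0.07) and Mrpl12 (0.27 ± 0.06), higher, and Mrps33, Mrpl50, Mrpl41 and Mrpl32 (-0.53 to -0.46), lower. At 5 weeks they were Mrps34 (0.67 ± 0.16) and Mrpl2 (0.64 ± 0.15), higher, and Mrpl33 (-0.90 ± 0.22) and Mrpl3 (-0.87 ± 0.17), lower. The summed level of all members was 4167 ± 395 CPM in the P21 batch and 4281 ± 285 CPM in the P1 batch for P21 hearts. For 5-week hearts it was 4201 ± 160 CPM in the 5-week batch and 3984 ± 260 CPM in the P1 batch (SD, n = 3 each). Single members differed between batches by -1.20 to 0.89 on the log2 scale, while the sum differed by -2.7% and 5.4%. Each heart gave 1 library per batch, so these differences include the spread between libraries. These counts rest on few hearts. Leaving out 1 heart gave 1 to 41 calls at P21 (1 without the heart at 4499 CPM in the P1 batch, 41 without that at 4386 CPM) and 8 to 33 at 5 weeks (33 without the heart at 3778 CPM in the P1 batch).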

How the data were processed

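Polyadenylated RNA of mouse hearts was sequenced from single ends without strand information, per the labels' protocols. Per the submitters' processing notes, the tools were Bowtie2, TopHat2 2.0.10, HTSeq and Cufflinks 2.1, with build mm10. The authors deposited raw read counts per gene (not normalised) and FPKM (fragments scaled to transcript length and library size), with an annotation file of exon positions.

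Counts were tested with edgeR 4.0.16 in R 4.3.3 (TMM scaling, filter by expression, quasi-likelihood F test), fitting the 4 genotypes of each age together, with a separate fit of the nontransgenic libraries of the P1 batch for age, a fit of all own-batch libraries for the interactions and a fit with the heart as a block for the batch comparisons. P-values were adjusted by Benjamini-Hochberg over all genes of a comparison, with calls under 0.05, in 19 comparisons. Standard errors follow from the fold change and its F statistic. Displayed CPM use 1 set of TMM factors over all 63 libraries. Library totals ran from 4557894 to 24339146, and no 2 libraries held identical values. Nothing but the titles tells the hearts apart, so p-values measure the spread between these libraries. Same-titled libraries of 2 batches come from the same RNA by the series' design, which is the pairing used as a block.

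Other settings were RLE scaling, Rn45s and mitochondrial transcripts left out, no filter, DESeq2 1.42.0, limma 3.58.1 on log2(FPKM + 1) for genes with a mean FPKM of at least 1 in a group, the title number as a block, no 5-week libraries of lowest depth, batch as a term, and each library left out in turn. The fits were tested on simulated data. Members named are, for each comparison, up to 5 called with the greatest rise and up to 5 with the greatest fall, or the 2 of lowest p where fewer than 2 were called, with 10 further members at each age, of which uncalled values are given where Mfn2AA differed from a control or ages were compared. From each other list up to 2 called genes could be named. The members and lists were chosen with earlier results of these data known. Figures were drawn with matplotlib 3.10.9.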

Additional observations from a re-analysis of the deposited data

Results flagged for a closer look

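The difference between Mfn2AA and Mfn2wt hearts was lower at 5 weeks than at P21 for 45 of 76 members by the interaction test, against 18.3% of 14610 genes.

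Single libraries stood apart from the rest of their group in 4 of 99 group values examined (the summed level and 8 members in each group of 4 to 10 libraries). Chance gives this in about 1 in 20 groups. Mrpl42 was at 143 CPM in 1 library of the 5-week Mfn2wt group, with the other 3 between 164 and 167 CPM. It was at 97.4 CPM in 1 library of the P1 tet-off group, with the others between 122 and 132 CPM. Mrps5 was at 83.1 CPM in 1 library of the P1 tet-off group, with the others between 67.5 and 69.4 CPM. Mrpl12 was at 304 CPM in 1 library of the P21 Mfn2wt group, with the others between 225 and 251 CPM.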

How the results depend on the processing

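Counts of other settings are given here without the share of all genes called in the same setting. At 5 weeks, members called between Mfn2AA and Mfn2wt numbered 51, and 15 with limma on log2(FPKM + 1). Between Mfn2AA and tet-off they numbered 53, and 21 with limma. Of the 51 and 53 members, 45 and 37 were called whichever library was left out, and 11 and 21 in every other setting; the cause was not tested. DESeq2 called 1 member between tet-off and nontransgenic hearts at P1 and 1 at P21, where edgeR called none. Leaving out single libraries gave 4 to 15 members between Mfn2AA and Mfn2wt at P21, 0 to 2 between tet-off and nontransgenic hearts at P21 and 5 to 12 between 5 weeks and P21. The batch counts were 23 at P21 and 10 at 5 weeks and moved to 8 with DESeq2 at P21, to 24 with no filter at 5 weeks, and without the replicate block to 0 at P21 and 5 at 5 weeks; leaving out a heart gave 1 to 41 and 8 to 33. Of the 23, 1 was called whichever heart was left out and 0 in every other setting; of the 10, 5 and 5. Values near 0 changed sign for Mrpl12 between Mfn2AA and Mfn2wt at P21 (0.043 with limma on FPKM, -0.068 to 0.059 with a library left out), for Mrpl12 between P21 and P1 (-0.079 to 0.105) and for Mrps18c there (-0.051 to 0.216). Between Mfn2AA and Mfn2wt at 5 weeks they did so for Mrps6 (0.003 with no filter, 0.085 with limma, -0.121 to 0.088 with a library left out), Mrpl41 (0.322 with limma, 0.179 without the 5 libraries of lowest depth, -0.166 to 0.061), Mrpl33 (-0.203 without those 5) and Mrpl52 (-0.36 without those 5, -0.055 to 0.353). Between Mfn2AA and tet-off they did so for Mrps6 (-0.055 without those 5, -0.051 to 0.299), Mrpl33 (0.206 with limma, 0.08 with the title number as a replicate block, -0.211 to 0.082) and Mrpl52 (0.027 with limma). None of these values was called with all libraries and edgeR.

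Title numbers that recur between groups are not stated to be litters. Mfn2AA and Mfn2wt hearts share no title number at any age, and all P21 Mfn2AA hearts carry the same number. A difference between these genotypes cannot be told apart from a difference between title numbers. Deviations of same-numbered libraries from their group means correlated at 0.04 on average at P1, 0.06 at P21 and 0.01 at 5 weeks. Where a group holds a single title number, its mean takes up any shift common to that number. The correlation therefore cannot decide whether the numbers mark pairs, and they were not treated as pairs in the main fits. With the title number as a replicate block, 40 members were called between Mfn2AA and tet-off at 5 weeks, where 53 were called without it.

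Depth limits the members of lowest counts, and 3 of the 5 libraries of lowest depth at 5 weeks are Mfn2wt. For Mfn2AA, Mfn2wt and tet-off hearts, age and batch cannot be told apart across ages, nor can transgene level in Mfn2AA and Mfn2wt hearts. Nontransgenic ages were compared within the P1 batch, while the labelled tissue differs between P1 and the later ages.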
